A study of Mus musculus with 9 samples.

Results

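Mitosis is driven by a small set of proteins whose messages build up in G2 and M phase. They are the cyclin-CDK engine, the Polo and Aurora kinases, the kinetochore that ties chromosomes to microtubules, the checkpoint that watches this attachment, and the kinesins that build the spindle and split the cell. The values of 48 such genes are described here, out of 24411 gene symbols in the deposited table of RNA-seq values. The genes were taken by symbol, all 48 were found, and each reached 1 TPM (a share of all transcripts, corrected for their length) in every line, so that none was removed by the filter that left 11753 genes for testing.

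The study grew genetically unmodified macrophages of C57BL/6 mice for long periods in 100 ng/mL of recombinant human M-CSF, the growth factor that macrophages need to live and divide. The 9 libraries were 3 YS lines from yolk sac of the embryo at E9.5, 3 FL lines from fetal liver at E14.5 and 3 BM lines from adult bone marrow, with 1 library per line. A line is the bulk culture from a separate dish or well, and the starting cells were pooled from several mice, so lines of a group may share animals and p-values measure the spread between lines. The study asked how the proliferation of the lines differs, and the comparison here asks whether the mitotic genes differ between YS, FL and BM lines.

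The lines had the defining genes of macrophages, with all 8 markers fixed for that cell type above 1 TPM and Csf1r, the M-CSF receptor, between 1086 and 2441 TPM. Their summed level was 4492 to 9434 TPM among the YS lines, 11960.4 to 28603 TPM among the FL lines and 12022 to 13666 TPM among the BM lines. The highest value was that of FL line 2, where Lyz2 (lysozyme) stood at 21976 TPM against 1163 to 13618 TPM in the other lines. The summed level of 6 fibroblast markers was at most 1.13 TPM and that of 6 lymphocyte markers at most 1.61 TPM. Globin messages stood out in BM line 2, where Hba-a1 was 215 TPM against at most 8.62 TPM in the other lines. For 6 hepatocyte markers it was 66.4 to 126 TPM among the YS lines, 113 to 128 TPM among the FL lines and 3.23 to 14.5 TPM among the BM lines, most of it Trf (transferrin) in YS and FL lines, while that of 5 endothelial markers was 5.37 to 56.0, 18.9 to 51.8 and 0.08 to 1.70 TPM. In the same order, 8 erythroid markers summed to 1.67 to 15.5, 5.20 to 16.3 and 0.50 to 374 TPM, 5 granulocyte markers to 0.39 to 3.43, 10.8 to 25.1 and 3.49 to 5.00 TPM, and 4 megakaryocyte markers to 3.34 to 4.42, 0.83 to 1.12 and 0.53 to 1.05 TPM. The part of such cells in the results was not tested. TPM sums to the same total in every library, and the number of reads behind a value is unknown.

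All 9 lines expressed each of the 48 mitotic genes, at 9.19 TPM or more. The mean over 9 lines ran from 13.5 TPM for Kif18a, a kinesin that damps chromosome movements at the metaphase plate, to 306 TPM for Top2a, the topoisomerase that untangles sister chromatids. Together the 48 genes took 5605 ± 392 TPM (SD, n = 3 lines) in the YS group, 4614 ± 871 TPM in the FL group and 5179 ± 268 TPM in the BM group. By line the sums were 6012, 5229 and 5575 TPM in YS lines 1 to 3, 5596, 3934 and 4311 TPM in the FL lines, and 5433, 5207 and 4898 TPM in the BM lines. The groups overlapped in this sum, with FL line 1 inside the range of the YS lines and FL lines 2 and 3 below every other line. Without FL line 2 the FL group stood at 4954 ± 908 TPM (SD, n = 2 lines). In such bulk samples, fewer cells in mitosis and less mitotic mRNA per cell cannot be told apart.

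FL line 2 stood apart. It held the lowest value of 36 of the 48 genes (75%), against 12.2% of all genes tested, while FL line 1 held none of the lowest. The highest value was in YS line 1 for 21 genes (43.75%, against 27.3% of all genes) and in BM line 1 for 12 (25%, against 9.85%). It was in YS line 3 for 9 (18.75%, against 16.9%), in FL line 1 for 4 (8.33%, against 8.85%) and in YS line 2 for 2 (4.17%, against 4.11%). The median SD of the 48 genes on the log2(TPM + 1) scale was 0.287 among FL lines against 0.183 over all genes, 0.217 against 0.275 among YS lines and 0.0962 against 0.115 among BM lines. Relative to the DNA replication genes of S phase (49 genes fixed as a list), the summed level of the mitotic genes was 1.06 ± 0.026 (SD, n = 3 lines) in the YS group, 1.05 ± 0.131 in the FL group and 1.13 ± 0.082 in the BM group, and the lowest line was again FL line 2, at 0.916. Without it the FL group stood at 1.11 ± 0.088 (SD, n = 2 lines).

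**Figure D1:**
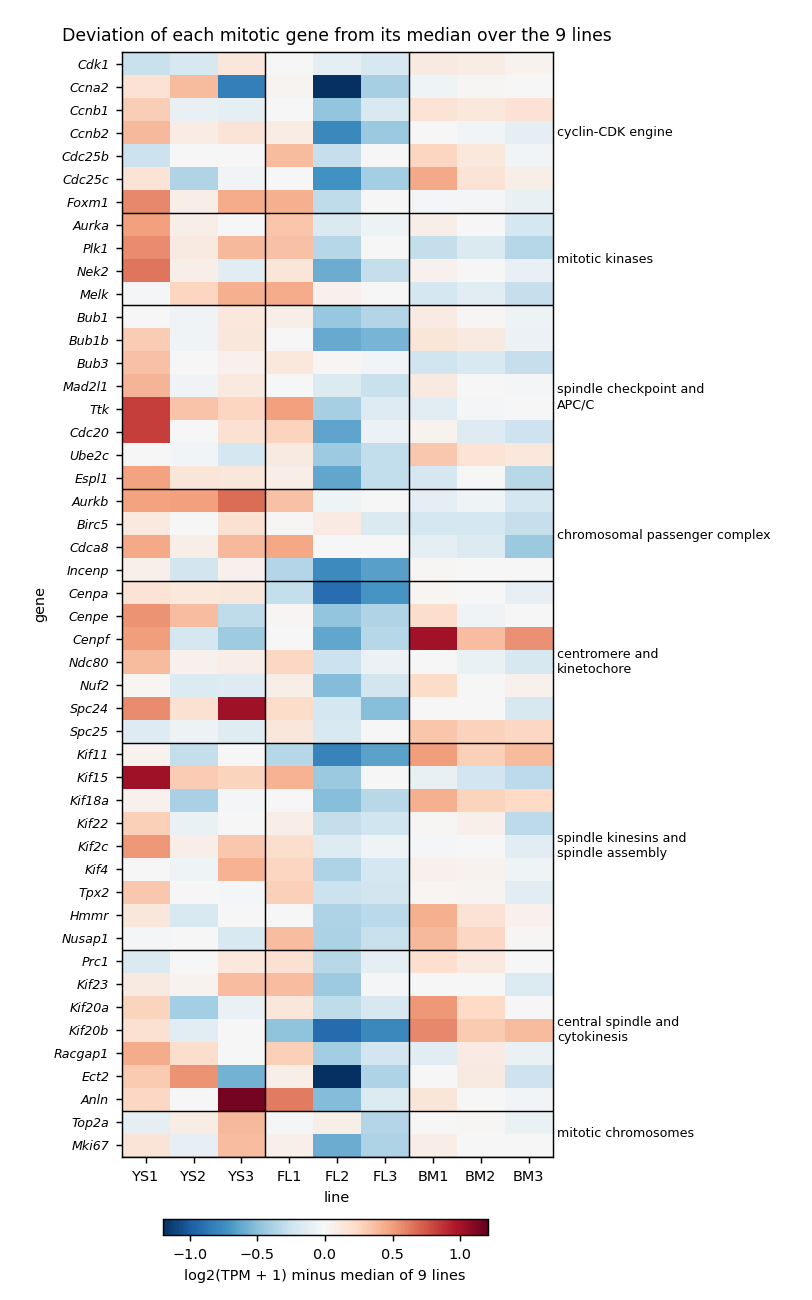
Level of each of the 48 mitotic genes in each line as log2(TPM + 1) minus the median of the gene over 9 lines (color, cut at 1.2 in either direction), with lines in columns and genes in rows grouped by role. FL line 2 is below the median for 44 of the 48 genes, YS line 1 is above it for 38, and the dark cells include Ccna2 and Ect2 in FL line 2 and Anln and Spc24 in YS line 3.

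Genes of G2 and M phase are known to carry in their promoters a short element called CHR, most often TTTGAA, which the DREAM and MuvB complexes read together with B-Myb and FoxM1, and upstream of it CCAAT boxes bound by NF-Y. The promoters of the mitotic genes are shown for that reason. RefSeq promoters (GRCm38.p6, 250 bases before to 50 bases after the start) were matched for 40 of the 48 genes. The 8 others were Aurkb, Ccna2, Kif20a, Tpx2, Cdc25c, Incenp, Spc24 and Foxm1. Of the matched members, 3 had more than 1 promoter. For these, and for the genes set beside the members, only the first promoter listed was used. TTTGAA was found on either strand in 29 of the 40 promoters (72.5%), against 12% of the promoters of tested genes and 18.1% of all promoters. In 27 of the 40 (67.5%) it began within 50 bases of the start, which was so for 3.0% of the promoters of tested genes and 4.9% of all. CCAAT was in 72.5% of the 40, against 39.2% and 37.9%, and both elements were in 60%, against 5.2% and 7.1%. The other CHR form, TTTAAA, was in 22.5%, against 8.8% and 13.2%. E2F factors read other elements, known from genes of S phase. The form TTCCCGC was found in none of the 40 promoters, against 8.8% of the promoters of tested genes and 4.7% of all. TTGGCGC was in 6 (15%), against 4.5% and 2.5%. The last form searched, TTCGCGC, was in 2 (5%), against 3.3% and 1.6%. At least 1 of these forms was in 17.5%, against 15.4% and 8.2%. Both strands were searched, and no overlap between motifs was removed. A match is a description of letters and does not show that a factor is bound.

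The 5 promoters below belong to 4 genes that were called and to 1 mitotic cyclin that was not. TTTGAA and CCAAT, read on either strand, are in capitals, and TTTAAA, which Plk1 and Cenpa also hold, is left in lower case. Plk1 (chr7:122159185-122159484, plus strand) codes for a kinase called higher in YS than in BM lines, Cenpa (chr5:30666636-30666935, plus strand) was called lower in FL lines than in both other groups, Kif11 (chr19:37376132-37376431, plus strand) and Kif20b (chr19:34922108-34922407, plus strand) had the largest differences of all members, and Ccnb2 (chr9:70421505-70421804, minus strand) is the cyclin, shown for its several CCAAT boxes.
Plk1: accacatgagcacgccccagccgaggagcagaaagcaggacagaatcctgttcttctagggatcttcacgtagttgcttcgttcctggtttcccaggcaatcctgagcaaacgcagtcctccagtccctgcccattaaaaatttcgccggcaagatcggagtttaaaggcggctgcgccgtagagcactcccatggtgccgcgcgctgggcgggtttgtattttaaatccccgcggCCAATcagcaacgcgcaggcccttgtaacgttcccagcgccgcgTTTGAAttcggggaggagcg
Cenpa: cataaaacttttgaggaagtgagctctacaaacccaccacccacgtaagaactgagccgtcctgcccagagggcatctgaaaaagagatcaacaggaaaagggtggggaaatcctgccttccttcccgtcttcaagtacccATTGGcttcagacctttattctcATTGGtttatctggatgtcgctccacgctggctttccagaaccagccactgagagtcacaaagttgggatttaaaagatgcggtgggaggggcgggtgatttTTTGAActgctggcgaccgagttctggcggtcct
Kif11: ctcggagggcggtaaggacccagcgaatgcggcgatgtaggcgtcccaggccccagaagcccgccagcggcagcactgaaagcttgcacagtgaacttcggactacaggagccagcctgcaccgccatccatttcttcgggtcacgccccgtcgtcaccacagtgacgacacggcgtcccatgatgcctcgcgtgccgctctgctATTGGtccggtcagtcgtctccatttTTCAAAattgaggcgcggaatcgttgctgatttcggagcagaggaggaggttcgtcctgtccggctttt
Kif20b: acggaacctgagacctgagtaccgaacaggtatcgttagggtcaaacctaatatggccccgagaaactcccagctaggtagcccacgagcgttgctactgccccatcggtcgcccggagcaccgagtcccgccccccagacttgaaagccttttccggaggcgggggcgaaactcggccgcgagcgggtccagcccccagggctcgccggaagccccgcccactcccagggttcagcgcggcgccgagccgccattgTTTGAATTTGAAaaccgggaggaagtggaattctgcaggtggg
Ccnb2: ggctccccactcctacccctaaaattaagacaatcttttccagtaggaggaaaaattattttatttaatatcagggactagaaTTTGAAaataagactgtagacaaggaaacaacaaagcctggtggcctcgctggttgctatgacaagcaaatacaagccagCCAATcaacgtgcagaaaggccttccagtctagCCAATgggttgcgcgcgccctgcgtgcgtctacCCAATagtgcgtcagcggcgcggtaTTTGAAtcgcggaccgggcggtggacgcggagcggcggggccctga
Each of the 5 held TTTGAA within 50 bases of the start, and in Kif20b it stands there as a direct repeat. Ccnb2 held it also 167 bases before the start, with its CCAAT boxes between both matches. Kif20b had no CCAAT box in this window, Plk1 and Kif11 had 1, Cenpa had 2 and Ccnb2 had 3. Promoters were matched for 7 of the 9 members called higher in YS than in BM lines, and 5 of the 7 held TTTGAA (not Melk and Birc5). Of the 10 called lower in FL than in BM lines, 8 were matched and 7 held it (not Kif18a), beside 29 of all 40.

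Differences were tested with limma over all genes and are given as log2(TPM + 1) of the first group minus the second ± standard error, with the p adjusted by Benjamini-Hochberg over 11753 genes. A gene is named as called where its false discovery rate is below 0.1, and as called over 2-fold where the difference also exceeds 1. The exact permutation test of 3 lines against 3 cannot go below p = 0.1, a value reached by each gene whose groups do not overlap. The comparisons share groups, so that YS and FL lines were each set against the same BM lines.

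The mitotic genes differed little in size between groups. All genes set beside them include genes near the filter of 1 TPM and were not matched to the members by level. None of the 48 was called over 2-fold between YS and BM lines, where 12.8% of all genes were, and none between YS and FL lines, where 3.79% were. At an unadjusted p under 0.05 there were 14 members (41.2% of all genes) in the first of these comparisons and 11 (25.7%) in the second. Between FL and BM lines only Kif20b was called over 2-fold, against 10.3% of all genes. At any size, 9 members had called differences above and 4 below 0 in YS against BM lines, beside 23.5% and 14.4% of all genes. This split depended on the scaling. It was 5 higher and 7 lower after median-of-ratios scaling (2144 and 2209 of all genes), 6 and 6 after quantile normalization (2005 and 2243), and 4 and 9 after each line was centred on its median (1924 and 2397). Between FL and BM lines no member was called higher and 10 were called lower, against 17.0% and 10.6% of all genes, and the lower count was 14 under each of those 3 scalings, with none higher. Between YS and FL lines 6 were called higher and none lower, against 6.20% and 6.56%, and 7 or 8 higher under the 3 scalings. None of these 6 was called when the 6 YS and FL libraries were fitted alone (adjusted p from 0.15 to 0.24). For FL against BM and YS against FL lines the shares of all genes under the 3 scalings are not given. The member counts under those scalings thus have no background beside them. In all, 19 of the 48 genes were called in at least 1 comparison.

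By direction alone, 45 of 48 genes had a higher mean in YS than in FL lines (52.2% of all genes did), 31 of 48 in YS than in BM lines (58.8%) and 13 of 48 in FL than in BM lines (59.0%). Without FL line 2 the first of these was 40 (52.0% of all genes) and the last 21 (59.1%). The median difference of the 48 was 0.29 for YS against FL, 0.14 for YS against BM and -0.17 for FL against BM lines, beside 0.02, 0.11 and 0.09 for all genes. Median centring moved the median of all genes to -0.01, -0.03 and -0.02 in that order. Relative to the median of all genes the mitotic genes thus stood at 0.27, 0.03 and -0.26. Without FL line 2 the first and last of these were 0.14 and -0.18, and without FL line 1 they were 0.39 and -0.38. The values of 7 members did not overlap between YS and FL lines (26.1% of all genes), those of 22 between YS and BM lines (49.0%) and those of 17 between FL and BM lines (49.5%). Without FL line 2, which leaves fewer values to overlap, there were 9 between YS and FL lines (32.6%) and 20 between FL and BM lines (60.8%).

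**Figure D2:**
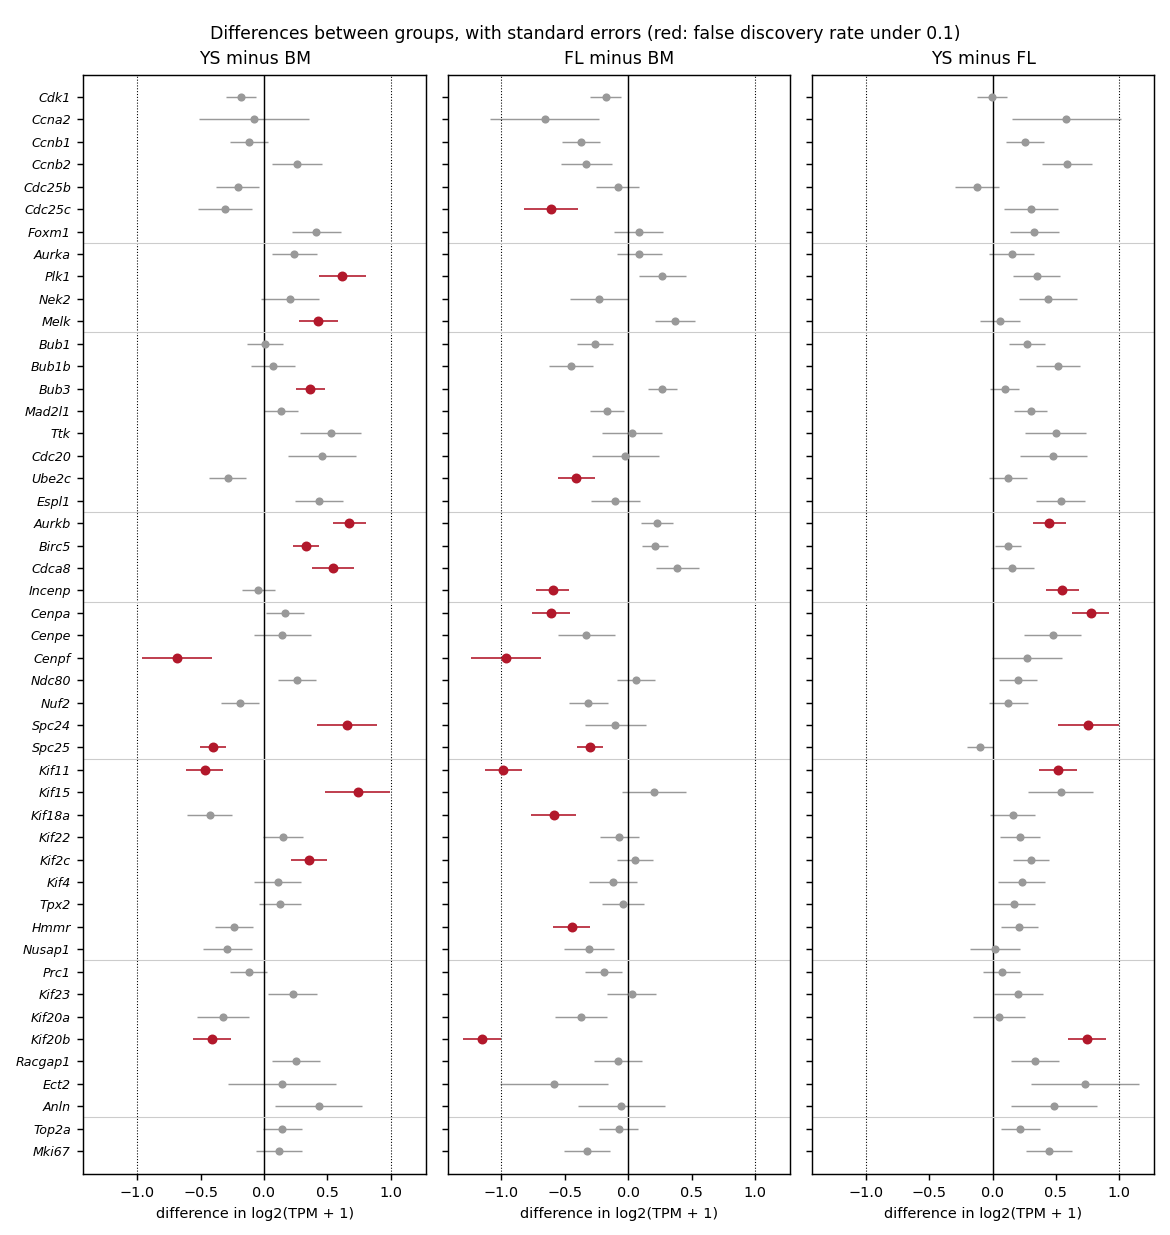
Difference between groups in log2(TPM + 1) with its standard error for each of the 48 genes (rows, in role groups), for YS minus BM, FL minus BM and YS minus FL lines, 3 lines per group, with called genes in red and dotted lines at 2-fold. Only Kif20b between FL and BM lines lies beyond a dotted line as a called gene, and 45 of the 48 points are right of 0 between YS and FL lines.

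The cyclin-CDK engine, in which cyclins A and B switch on Cdk1 and the Cdc25 phosphatases release it, had 1 call among 7 genes and 3 comparisons. That call was lower in FL than in BM lines, where 10.6% of all genes were called lower. Ccna2, which encodes cyclin A2, had the highest level of the group. It was 272, 314 and 136 TPM in YS lines 1 to 3, 247, 76.4 and 182 TPM in the FL lines, and 233, 243 and 241 TPM in the BM lines. BM lines were nearly equal, while YS line 3 and FL line 2 lay far below the other lines of their groups. With that spread the differences were -0.08 ± 0.43 for YS against BM lines and -0.66 ± 0.43 for FL against BM lines (adjusted p = 0.91 and 0.32). Cdc25c, the phosphatase that acts on Cdk1 at mitotic entry, was called lower in FL than in BM lines (-0.61 ± 0.21, adjusted p = 0.079), a call lost without any one of 5 lines, FL line 2 among them (-0.43, adjusted p = 0.24). Cdk1 itself ran from 112 to 149 TPM over all lines, a ratio of 1.32, the narrowest of the 48 genes. Ccnb1 and Ccnb2 (cyclins B1 and B2), Cdc25b and Foxm1, the transcription factor of G2 and M genes, were not called. Foxm1 did not overlap between YS lines (77.8 to 110.2 TPM) and BM lines (69.2 to 72.5 TPM).

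All 4 mitotic kinases had a higher mean in YS than in BM lines, and 2 of them were called, beside 23.5% of all genes called higher. Plk1, the Polo kinase of centrosome maturation and mitotic entry, was 149, 108 and 131 TPM in YS lines 1 to 3, 128, 78.9 and 100.2 TPM in the FL lines, and 82.2, 88.8 and 79.1 TPM in the BM lines. Every YS line was above every BM line, and FL lines reached from the BM range into the YS range. The difference between YS and BM lines was 0.62 ± 0.18, adjusted p = 0.038, a 1.55-fold ratio of means. It was lost without BM line 1 or BM line 3 (adjusted p up to 0.12). Melk, a kinase of the AMPK family with an M phase peak, was called higher in YS than in BM lines (0.43 ± 0.16, adjusted p = 0.071), but not under any of the 3 other scalings or without any one of 5 lines (adjusted p up to 0.19). Its level was 40.1 to 54.5 TPM among the YS lines, 40.4 to 55.2 TPM among the FL lines and 33.1 to 36.9 TPM among the BM lines, so that FL lines overlapped with YS lines and lay above BM lines (0.37 ± 0.16, adjusted p = 0.13). Aurka, the kinase of spindle poles, and Nek2, the kinase that parts the centrosomes, were not called. Both were highest in YS line 1, at 102 TPM each.

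The spindle checkpoint and the ubiquitin ligase APC/C that it restrains had 2 calls among 8 genes. In YS against BM lines 1 gene was called higher, beside 23.5% of all genes. In FL against BM lines 1 was called lower, beside 10.6% of all genes. Bub3, the adaptor that brings Bub1 and BubR1 to kinetochores, was 242, 189.8 and 196 TPM in YS lines 1 to 3, 207, 192 and 186 TPM in the FL lines, and 161, 168 and 156 TPM in the BM lines. All YS and FL lines were above all BM lines. The call was made for YS lines (0.36 ± 0.11, adjusted p = 0.043) and not for FL lines (0.27 ± 0.11, adjusted p = 0.13), and whether these differed from each other was tested by the YS against FL comparison, which gave 0.10 ± 0.11, adjusted p = 0.62. The YS call was lost without BM line 1 or BM line 3 (adjusted p up to 0.14) and under median centring. Ube2c, the E2 enzyme that works with APC/C and the most abundant gene of the group, went the other way. It was 269, 262 and 232 TPM in YS lines 1 to 3, 290.5, 199 and 219 TPM in the FL lines, and 337, 301 and 294 TPM in the BM lines. BM lines were above all others, while YS and FL lines overlapped. FL lines were called lower than BM lines (-0.41 ± 0.15, adjusted p = 0.087), a call lost without any one of FL lines 2 and 3, YS line 2 or the BM lines (adjusted p up to 0.25), and the YS difference was -0.29 ± 0.15, adjusted p = 0.18. Espl1, the separase that cuts cohesin, had the largest difference of the group, with 52.5, 41.4 and 41.1 TPM in YS lines 1 to 3, 39.4, 23.9 and 30.1 TPM in the FL lines, and 32.3, 37.2 and 29.4 TPM in the BM lines. YS lines did not overlap with FL or BM lines, at 0.54 ± 0.19, adjusted p = 0.13 against FL lines and 0.43 ± 0.19, adjusted p = 0.12 against BM lines. Ttk, the checkpoint kinase, and Cdc20, the APC/C activator, were not called, and were both highest in YS line 1 (50.8 and 166 TPM, against at most 39.9 and 112 TPM in any other line). Bub1, Bub1b and Mad2l1, the other checkpoint proteins, were not called.

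The chromosomal passenger complex carries Aurora B from chromosomes to the central spindle, and 3 of its 4 genes were called higher in YS than in BM lines, where 23.5% of all genes were. Aurkb, its kinase, had the smallest adjusted p of the 48 genes in that comparison. It was 96.6, 97.4 and 110.4 TPM in YS lines 1 to 3, 88.3, 66.5 and 68.9 TPM in the FL lines, and 63.8, 66.4 and 59.5 TPM in the BM lines. YS lines lay above all FL and BM lines, and the groups did not overlap in any comparison. The difference was 0.67 ± 0.13, adjusted p = 0.0078 against BM lines, 1.61-fold in means, and it was called under all 21 alternatives tried, with adjusted p from 0.0055 to 0.04. Against FL lines it was 0.45 ± 0.13, adjusted p = 0.077, a call lost when any one of 6 lines was left out (adjusted p up to 0.21). Birc5 (survivin), the most abundant subunit, was 314, 289.7 and 329 TPM in YS lines 1 to 3, 293, 309.6 and 256 TPM in the FL lines, and 250.3, 249 and 239 TPM in the BM lines. It was called higher in YS than in BM lines (0.33 ± 0.10, adjusted p = 0.041), FL lines overlapped with YS lines and lay above all BM lines (0.21 ± 0.10, adjusted p = 0.18), and the YS call was lost without BM line 1 or BM line 3 (adjusted p up to 0.14) and under 2 of the 3 scalings. Cdca8 (borealin) was 174, 133 and 167 TPM in YS lines 1 to 3, 175, 126 and 127 TPM in the FL lines, and 117, 113 and 93.1 TPM in the BM lines. It was called in YS lines (0.54 ± 0.17, adjusted p = 0.043), and lost without BM line 3 (adjusted p = 0.15). Incenp, the scaffold that binds the kinase, had another pattern. It was 116, 96 and 116 TPM in YS lines 1 to 3, 87.5, 65.3 and 70.8 TPM in the FL lines, and 113, 112 and 112 TPM in the BM lines. FL lines were below all others, YS and BM lines overlapped, and the differences were -0.60 ± 0.13, adjusted p = 0.014 for FL against BM lines and 0.55 ± 0.13, adjusted p = 0.052 for YS against FL lines, the latter lost without FL line 2 or FL line 3 (adjusted p up to 0.15). By their means, the kinase was highest in YS and lowest in BM lines, and its scaffold lowest in FL lines. For the scaffold YS and BM lines were not called different (-0.04 ± 0.13, adjusted p = 0.82).

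**Figure D3:**
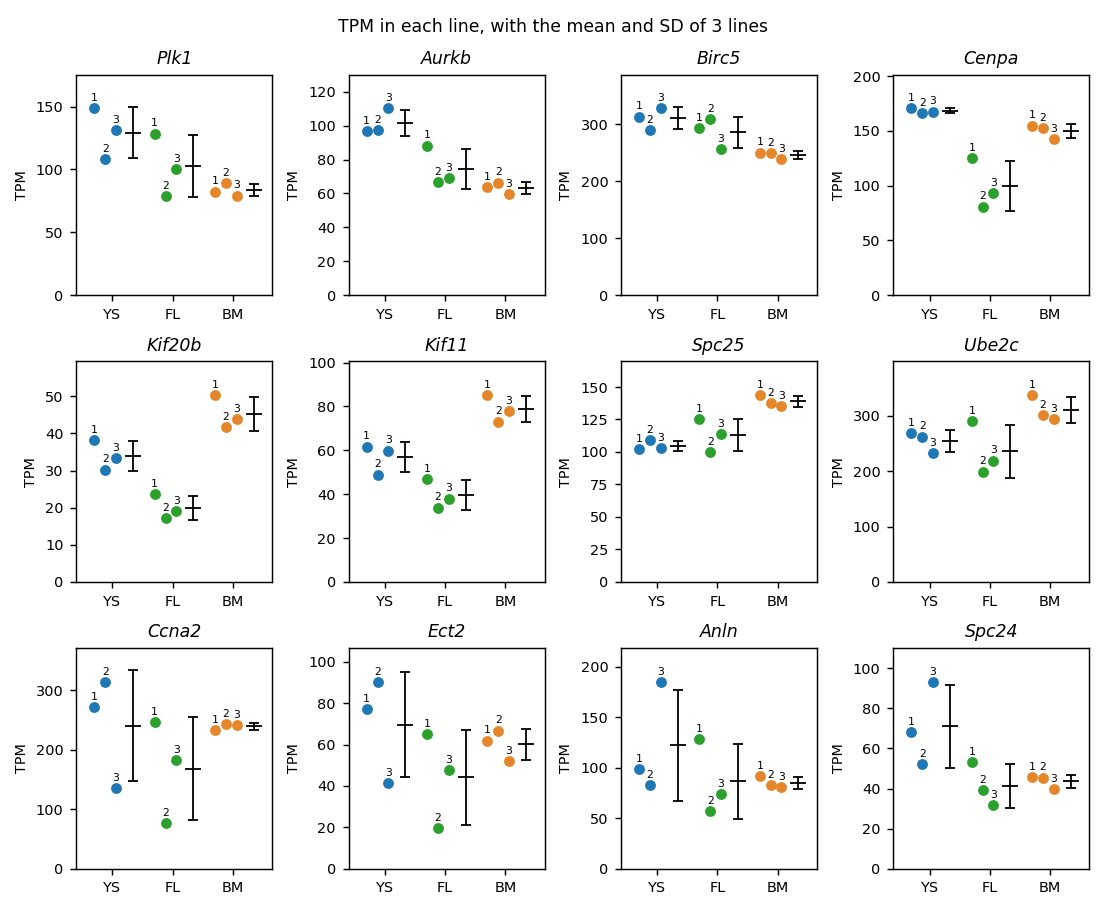
TPM of 12 of the mitotic genes in each line (points numbered 1 to 3 in YS, FL and BM lines) with the mean and SD of the 3 lines of a group beside them. Plk1, Aurkb and Birc5 have their highest means in YS lines, with FL lines overlapping YS lines in Plk1 and Birc5. Kif20b, Kif11 and Cenpa are lowest in FL lines and Spc25 and Ube2c highest in BM lines. In Ccna2, Ect2, Anln and Spc24 single lines set the spread.

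The centromere and kinetochore genes held calls in both directions. Cenpa, the histone H3 variant that marks the centromere, was 171, 166 and 167 TPM in YS lines 1 to 3, 125, 80.7 and 93.2 TPM in the FL lines, and 155, 153 and 143 TPM in the BM lines. The 3 YS lines differed by less than 5 TPM, and FL lines were below every YS and BM line. FL lines were called lower than BM lines (-0.61 ± 0.15, adjusted p = 0.022, called under all alternatives) and YS lines higher than FL lines (0.77 ± 0.15, adjusted p = 0.032, lost without FL line 3 at adjusted p = 0.11 and with the 6 libraries of the comparison at 0.15), while YS and BM lines differed by 0.16 ± 0.15, adjusted p = 0.43. Cenpf, a large protein of the outer kinetochore and nuclear envelope, was 42.3, 25.4 and 21.8 TPM in YS lines 1 to 3, 29.6, 18.9 and 23.1 TPM in the FL lines, and 60.8, 38.5 and 43.8 TPM in the BM lines. YS lines overlapped with BM lines and FL lines did not, and BM line 1 was the highest. Cenpf was called lower in FL (-0.96 ± 0.28, adjusted p = 0.041) and in YS lines (-0.69 ± 0.28, adjusted p = 0.094) than in BM lines. Its call in FL lines was lost without BM line 1, BM line 3 or FL line 2 (adjusted p up to 0.15), and its call in YS lines without any one of 6 lines (up to 0.28).

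The 4 subunits of the Ndc80 complex, the rod that grips microtubules, did not move together. Spc25 was 102, 109 and 103 TPM in YS lines 1 to 3, 125, 100.02 and 114 TPM in the FL lines, and 144, 138 and 135 TPM in the BM lines. BM lines were above all FL and YS lines, and Spc25 was called lower in YS lines (-0.40 ± 0.10, adjusted p = 0.021, called under all alternatives) and in FL lines (-0.30 ± 0.10, adjusted p = 0.072, lost without any one of 5 lines, adjusted p up to 0.21). Spc24, its direct partner, was 68.1, 52.0 and 93.1 TPM in YS lines 1 to 3, 53.3, 39.2 and 31.7 TPM in the FL lines, and 45.6, 45.4 and 39.7 TPM in the BM lines. YS line 3 was the highest and FL lines overlapped with BM lines, and Spc24 was called higher in YS than in BM lines (0.66 ± 0.24, adjusted p = 0.07) and FL lines (0.76 ± 0.24, adjusted p = 0.095). Without YS line 3 these 2 differences were 0.44 and 0.54, and neither was called. In all, the calls were lost without any one of 5 and of 7 lines (adjusted p up to 0.19 and 0.26), and that against BM lines also under each of the 3 other scalings (adjusted p from 0.11 to 0.13). Ndc80 and Nuf2 were not called and stayed between 57.0 and 89.3 TPM and between 74.4 and 125 TPM. Cenpe, the kinesin that moves chromosomes to the plate, was not called, with 47.3 TPM in YS line 3 against 76.3 and 85.7 TPM in the other YS lines.

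Of 9 members that are spindle kinesins or act in spindle assembly, calls in YS against BM lines were 2 higher and 1 lower, and 3 were called lower in FL than in BM lines, beside 23.5%, 14.4% and 10.6% of all genes. Kif11 (Eg5), the kinesin that pushes the spindle poles apart, was 61.7, 48.9 and 59.8 TPM in YS lines 1 to 3, 47.0, 33.9 and 37.9 TPM in the FL lines, and 85.2, 73.1 and 78.0 TPM in the BM lines. The 3 groups did not overlap in any comparison, with BM lines highest and FL lines lowest. Kif11 was called lower in FL than in BM lines (-0.98 ± 0.15, adjusted p = 0.003, 0.503 times in means, called under all alternatives), lower in YS than in BM lines (-0.47 ± 0.15, adjusted p = 0.045) and higher in YS than in FL lines (0.52 ± 0.15, adjusted p = 0.078). The YS call against BM lines was lost without BM line 1, BM line 3 or YS line 2 (adjusted p up to 0.15), and that against FL lines without any one of 7 lines (up to 0.21). Kif15, which can stand in for Kif11 at the spindle, was called higher in YS than in BM lines (0.74 ± 0.25, adjusted p = 0.061), with 90.4 TPM in YS line 1 against 54.7 and 53.4 TPM in the other YS lines and 35.3 to 41.5 TPM in BM lines. Without YS line 1 the difference was 0.49 and was not called, and the call was also lost without any one BM line (adjusted p up to 0.17).

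Kif18a was 14, 10.1 and 13.3 TPM in YS lines 1 to 3, 13.5, 9.19 and 10.5 TPM in the FL lines, and 18.5, 16.4 and 16.1 TPM in the BM lines. BM lines were above all others, FL lines were called lower (-0.59 ± 0.18, adjusted p = 0.049) and YS lines stood at -0.43 ± 0.18, adjusted p = 0.1. The FL call was lost without any one of FL lines 2 and 3 and the BM lines (adjusted p up to 0.16). Hmmr, a spindle microtubule protein that binds Tpx2, was called lower in FL than in BM lines (-0.45 ± 0.15, adjusted p = 0.068), a call lost without any one of 4 lines (adjusted p up to 0.23). Kif2c (MCAK), which takes microtubules apart at centromeres, was called higher in YS than in BM lines (0.36 ± 0.14, adjusted p = 0.095), but under none of the 3 other scalings and not without any one of 6 lines (adjusted p up to 0.24). Tpx2, the activator of Aurora A and the most abundant gene here, was 125, 99.7 and 98.3 TPM in YS lines 1 to 3, 121, 83.0 and 85.2 TPM in the FL lines, and 102, 102 and 90.7 TPM in the BM lines. All 3 groups overlapped, and no difference was called. Kif22, Kif4 and Nusap1, which move or bind chromosome arms and spindle microtubules, were not called.

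Of 7 genes of the central spindle and of cytokinesis, Kif20b alone was called. Of all genes, 10.6% were called lower in FL and 14.4% lower in YS than in BM lines, and 6.20% higher in YS than in FL lines. Kif20b, a kinesin of the midbody, was 38.2, 30.3 and 33.4 TPM in YS lines 1 to 3, 23.6, 17.2 and 19.1 TPM in the FL lines, and 50.4, 41.7 and 43.8 TPM in the BM lines. The groups did not overlap in any comparison. The difference between FL and BM lines, -1.15 ± 0.15, adjusted p = 0.0017, was the largest of the 48 genes, at 0.44 times in means, and it was called under all 21 alternatives with differences from -1.27 to -0.74. YS lines were called higher than FL lines (0.74 ± 0.15, adjusted p = 0.038, lost without FL line 2 or FL line 3, adjusted p up to 0.12) and lower than BM lines (-0.41 ± 0.15, adjusted p = 0.073, lost without any one of 6 lines, adjusted p up to 0.23). Racgap1, a subunit of centralspindlin, was the most abundant of the group, with 207, 176 and 152 TPM in YS lines 1 to 3, 185, 113 and 129.8 TPM in the FL lines, and 138, 163 and 144 TPM in the BM lines. All 3 groups overlapped. Ect2, an exchange factor that acts at the equator of the dividing cell, was 77, 90.2 and 41.5 TPM in YS lines 1 to 3, 65.1, 19.6 and 47.7 TPM in the FL lines, and 61.8, 66.7 and 52.0 TPM in the BM lines. YS line 3 and FL line 2 lay far below the other lines of their groups, and the ratio of the highest to the lowest line, 4.59, was the largest of the 48 genes. Anln (anillin), the scaffold of the contractile ring, was 98.5, 82.9 and 185 TPM in YS lines 1 to 3, 128, 57.3 and 74.0 TPM in the FL lines, and 91.5, 82.4 and 81.0 TPM in the BM lines, with YS line 3 far above the rest. Prc1, the bundler of central spindle microtubules, Kif23, the kinesin of centralspindlin, and Kif20a, which carries passenger proteins there, were not called.

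Top2a was 281, 322 and 396 TPM in YS lines 1 to 3, 299.5, 319 and 237 TPM in the FL lines, and 303, 306 and 286 TPM in the BM lines. Mki67, which codes for the proliferation marker Ki-67 that coats mitotic chromosomes, was 309.9, 259.8 and 361 TPM in YS lines 1 to 3, 291, 184 and 215 TPM in the FL lines, and 295, 277 and 279 TPM in the BM lines. YS line 3 was highest in both, and the groups overlapped. For Mki67 the differences were 0.12 ± 0.18, adjusted p = 0.65 for YS against BM, -0.33 ± 0.18, adjusted p = 0.24 for FL against BM and 0.44 ± 0.18, adjusted p = 0.17 for YS against FL lines. For Top2a no difference exceeded 0.22 on the log2 scale.

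Single lines in which Ccna2, Ect2, Anln and Spc24 stood apart were examined with the genes next to them. These 4 genes, and the others named in this paragraph, were chosen after their values were seen. For each of the 48 genes the 20 tested genes before and the 20 after it in the RefSeq gene order (GRCm38.p6) were taken, with other mitotic genes left out (40 neighbours, but 34 for Nek2 and 38 for Kif15 near the end of their chromosomes), and the deviation of each from its median over 9 lines was summarised by the median. On chromosome 3, Ccna2 deviated by -0.82 in YS line 3 and its neighbours by -0.83. In YS line 2 these values were 0.38 and 0.40, and in FL line 2 they were -1.65 and -0.74. Ect2 lies on the same chromosome, sharing 11 of its 40 neighbours with Ccna2. It deviated by -0.57 with -0.81 in its neighbours in YS line 3, by 0.54 with 0.48 in YS line 2, and by -1.61 with -0.92 in FL line 2. The low values of both genes thus came with low values of the genes around them, and in FL line 2 both lay further below. Cenpe, also on chromosome 3, deviated by -0.30 in YS line 3 with -0.76 in its neighbours, and by -0.47 in FL line 2 where its neighbours stood at 0.00.

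On chromosome 9 the direction was the opposite in YS line 3. Spc24 deviated by 1.01 there and its neighbours by 1.03. Anln, with 23 of 40 neighbours in common with Spc24, deviated by 1.15 with 0.95 in its neighbours. Kif23, elsewhere on the chromosome, deviated by 0.37 with 0.40 in its neighbours. In FL line 2, where most mitotic genes were low, Top2a and Birc5 on chromosome 11 were not, at 0.07 and 0.10, and their neighbours stood at 0.57 and 0.44. Over the 48 genes, the correlation between a gene's deviation and that of its neighbours was 0.856 in YS line 3, 0.807 in FL line 2, 0.726 in YS line 2 and 0.411 to 0.621 in the other lines (Pearson's r, n = 48 genes of 1 library each, some with shared neighbours). Over all genes with a position it was 0.139 to 0.320. By rank (Spearman's rho, over the 48 genes) it was 0.748 in YS line 3, 0.644 in YS line 2 and 0.479 in FL line 2. In the other lines rho was 0.443 to 0.524, so that FL line 2 did not stand apart by rank. Neighbours beyond 0.5 in either direction were found for 5 of the 48 genes in YS line 3, 3 in FL line 2, 1 each in BM lines 1 and 3 and none in the other lines, against 3.79%, 3.60%, 2.07% and 2.27% of all genes.

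**Figure D4:**
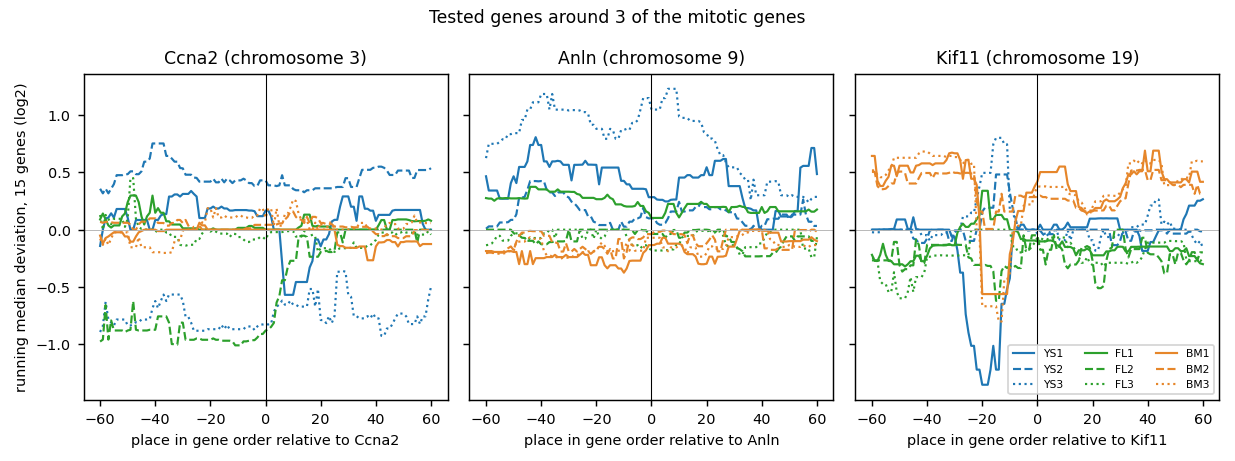
Running median, over 15 tested genes in chromosome order, of the deviation from the median of 9 lines on the log2(TPM + 1) scale, for 60 places on either side of Ccna2, Anln and Kif11, with 1 curve per line (color for group, line style for number). Around Ccna2 the curves of YS line 3 and, up to the gene, of FL line 2 lie below the others, around Anln that of YS line 3 lies above the others but for 1 place after the gene and the last 7 on the right, where YS line 1 is higher, and around Kif11 the BM lines lie above most of the others except in a stretch about 20 places before the gene.

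The 3 mitotic genes of chromosome 19, Incenp, Kif11 and Kif20b, were all called lower in FL than in BM lines, and so were 71.1% of the 426 tested genes of that chromosome, against 10.6% of all genes. The median difference of the chromosome was -0.80 for FL against BM lines and -0.53 for YS against BM lines, where 59.6% of its genes were called lower. Incenp differed by -0.60 between FL and BM lines and its neighbours by -0.76. Kif11 differed by -0.98 with -0.34 in its neighbours, and Kif20b by -1.15 with -0.41, the last 2 genes sharing 30 of 40 neighbours. Kif11 and Kif20b thus differed more than the genes around them, and Incenp did not. Of the members called lower in FL lines on other chromosomes, Cenpf differed by -0.96 and its neighbours by 0.07. The 9 members called higher in YS than in BM lines lay on chromosomes 4, 7, 9 and 11. There 38%, 31.3%, 48.7% and 27.2% of the tested genes were called higher, beside 23.5% of all genes. The 4 called lower lay on chromosomes 1, 2 and 19, where 12.7%, 19.2% and 59.6% were called lower, beside 14.4%.

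**Figure D5:**
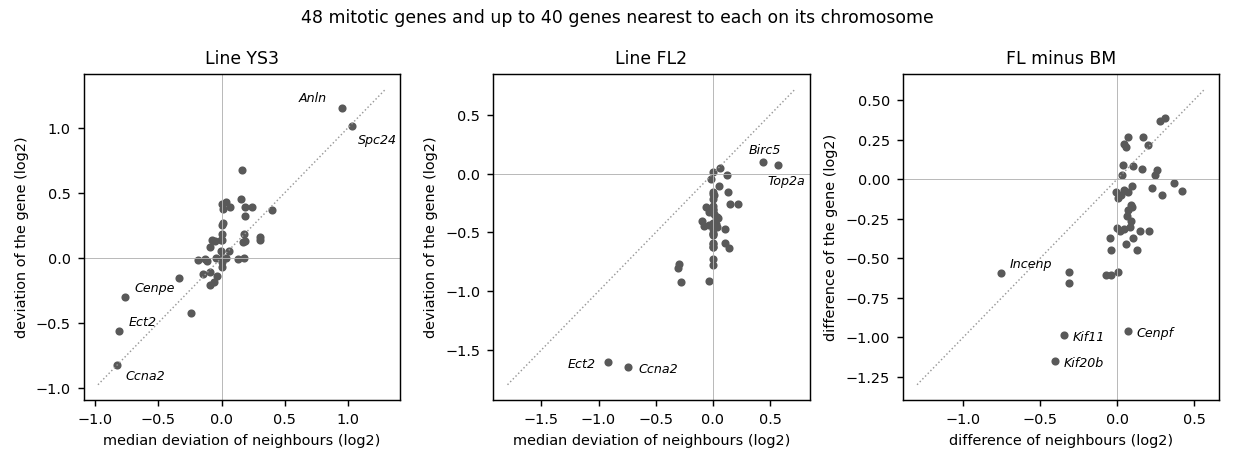
Deviation of each of the 48 mitotic genes (vertical axis) against the median deviation of its neighbours in gene order (horizontal axis), in log2 units, in YS line 3 and FL line 2, and the same for the difference between FL and BM lines, with the dotted line where both are equal. Anln and Spc24 lie high and Ccna2 and Ect2 low near the dotted line in YS line 3, most points of FL line 2 lie below it, and Kif20b, Kif11 and Cenpf lie below it between FL and BM lines.

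When the median of the neighbours was subtracted from every gene in every line before the fit, an alternative chosen after seeing the data, 8 members were called in YS against BM lines (5 higher and 3 lower, beside 19.6% and 16.8% of all genes in that fit), 6 of them among the 13 called before. Aurkb (0.55, adjusted p = 0.013), Bub3, Birc5, Kif15, Cenpf and Spc25 stayed called. Plk1 (0.35, adjusted p = 0.1), Melk, Cdca8, Spc24, Kif11, Kif2c and Kif20b did not, while Incenp (0.40, higher in YS lines, adjusted p = 0.035) and Hmmr (-0.37, adjusted p = 0.081) were added. Spc24 went from 0.66 to -0.08 and lost its direction. Between FL and BM lines 15 members were called, 14 of them lower (12.1% of all genes, with 14.0% higher), with 9 of the 10 called before among them. Kif20b stood at -0.74 (adjusted p = 0.007), Kif11 at -0.64 (adjusted p = 0.01) and Cenpa at -0.54 (adjusted p = 0.042). Incenp turned to 0.16 (adjusted p = 0.37), and Ccnb1, Ccnb2, Bub1, Spc24 and Top2a were added as lower and Bub3 as higher. Between YS and FL lines 6 members were called higher and none lower (6.89% and 7.40% of all genes), 3 of them among those called before (Aurkb, Cenpa and Kif20b). The cause of the shared movement of neighbouring genes was not tested.

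Other mitotic genes, in 6 lists of 125 genes that left out the 48, were counted in the same way. Among the 125, 32 (25.6%) were found higher and 8 (6.4%) lower in YS than in BM lines, beside 23.5% and 14.4% of all genes. In FL against BM lines there were 8 (6.4%) higher and 16 (12.8%) lower, beside 17.0% and 10.6%, and in YS against FL lines 17 (13.6%) higher and 1 (0.8%) lower, beside 6.20% and 6.56%. The medians were 0.15, -0.04 and 0.20. Of the 8 condensin genes, which fold mitotic chromosomes, YS lines had 4 above BM lines and 3 above FL lines among the called ones, and none below either. In YS against BM lines the 15 cohesin genes had 3 calls above 0 and none below, the 20 APC/C genes 5 and 1, the 32 other kinetochore genes 7 and 2, the 20 other kinases and regulators 8 and 1, and the 30 other kinesins and spindle genes 5 and 4. In YS against FL lines the calls above 0 were 4, 1, 1, 4 and 4 in that order, with 1 below, in an APC/C gene. In FL against BM lines the other kinetochore genes had 3 calls above and 6 below 0, the other kinesins and spindle genes 4 and 6, and the APC/C genes 1 and 1, while cohesin genes had 2 below, condensin genes 1 below and the other kinases none. Over 2-fold, Gtse1, a microtubule-binding protein of G2 phase, and Cep55, which acts in the last cut between daughter cells, were called lower in FL than in BM lines (-1.10 and -1.08, adjusted p = 0.0013 and 0.0051). Gtse1 was 57.1, 44.5 and 45.2 TPM in YS lines 1 to 3, 37.8, 35.9 and 30.6 TPM in the FL lines, and 74.1, 77.6 and 74.0 TPM in the BM lines. The groups of Gtse1 did not overlap in any comparison. Cep55 was 57.6, 43.4 and 53.0 TPM in YS lines 1 to 3, 42.5, 28.6 and 32.2 TPM in the FL lines, and 86.8, 64.0 and 68.9 TPM in the BM lines.

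The largest difference in each other list, at any size, was in Cdca5 (sororin, -0.95 between FL and BM lines, adjusted p = 0.0015), Ncapd3 (a condensin II subunit, 0.87 between YS and BM lines, adjusted p = 0.068), Zw10 (a kinetochore protein, 0.83 between YS and BM lines, adjusted p = 0.014), Cdc25a (the phosphatase of S phase entry, 0.89 between YS and BM lines, adjusted p = 0.0074) and Anapc11 (the RING subunit of APC/C, -0.65 between YS and FL lines, adjusted p = 0.065). Of these, Ncapd3, Zw10 and Cdc25a lie on chromosome 9, where 48.7% of 641 genes were called higher in YS than in BM lines. Cdca5 and Cep55 lie on chromosome 19. In the S phase list of 49 genes, calls in YS against BM lines were 26 higher and 3 lower (53.1% and 6.12%, beside 23.5% and 14.4% of all genes). They were 8 higher and 7 lower in FL against BM lines (16.3% and 14.3%, beside 17.0% and 10.6%), and 11 higher and none lower in YS against FL lines (22.4%, beside 6.20%). The medians were 0.43, 0.02 and 0.33. The median difference between YS and BM lines was thus 0.43 for the S phase genes and 0.14 for the 48 mitotic genes. In that list, Ccne1 (cyclin E1) was called over 2-fold higher in YS than in BM lines (1.14, adjusted p = 0.0044), and Gins3 (a part of the replicative helicase) and Pola2 (a subunit of DNA polymerase alpha, on chromosome 19) over 2-fold lower in FL than in BM lines (-1.45 and -1.001, adjusted p = 0.0032 and 0.0057). Ccne1 was 52.8, 33.5 and 44.3 TPM in YS lines 1 to 3, 33.6, 32.3 and 39.2 TPM in the FL lines, and 15.9, 21.4 and 19.5 TPM in the BM lines.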

How the data were processed

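Poly(A)-selected, strand-specific libraries of 9 macrophage lines were sequenced by the authors as single reads of 75 nt. The submitters' processing notes list Trim Galore 0.6.6, STAR 2.7.9a and RSEM 1.3.3, and the genome build and annotation are not given in the sources used here. The deposited values are TPM per gene symbol, scaled by the authors for transcript length and library total, so that depth is unknown and no counting error can be given. Groups and line numbers came from the sample labels.

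From the TPM, log2(TPM + 1) was computed (pseudocount 1), genes below 1 TPM in more than 6 of the 9 libraries were left out, and differences were tested with limma 3.58.1 in R 4.3.3 (a mean per group over all 9 libraries, empirical Bayes with intensity trend, Benjamini-Hochberg adjustment within a comparison). The script was tested on simulated data. The thresholds, a false discovery rate of 0.1 and 2-fold, follow the study's methods, whose count test could not be used on TPM. The members and gene lists were chosen with earlier results of these data known. Line by line values are given for the 12 members with the smallest adjusted p and, in each role group, for the members with the highest level and the largest difference. Of the other lists, genes called over 2-fold and the largest difference are named. Positions for 11709 tested genes came from the RefSeq table of GRCm38.p6, used for order along chromosomes only. Same-numbered lines of different groups were not paired, since correlations of their deviations were -0.118 to 0.088.

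Alternatives were pseudocounts of 0.1 and 4, no filter or a filter of 5 TPM, quantile normalization, median-of-ratios scaling, median centring, no intensity trend, the 6 libraries of a comparison alone, a false discovery rate of 0.05, the replicate number as a block, each line left out in turn, and, added later, subtraction of the neighbours' median.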

Additional observations from a re-analysis of the deposited data

How the results depend on the processing

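The 29 single gene calls were recomputed under 21 alternatives, giving 609 values. Of these 454 kept the direction and the call, 153 kept the direction without the call and 2 reversed, both on subtraction of the neighbours' median (Spc24 at -0.084 between YS and BM lines and Incenp at 0.16 between FL and BM lines). The tally pools unlike settings. Both pseudocounts and the filter of 5 TPM kept all 29 calls, while 10 were kept without BM line 1 and 10 without BM line 3. It also counts fits without a line of the group outside the comparison. Counts of called members moved by over 1.5 times as follows, most of them without values for all genes beside them. Those values are given above only for the 3 scalings between YS and BM lines and for subtraction of the neighbours' median. The other counts, also those with the replicate block, have no background beside them. Between YS and BM lines, the 9 higher became 5 after median-of-ratios scaling, 4 after median centring, 5 at a false discovery rate of 0.05 and 5 on subtraction of the neighbours' median, and the 4 lower became 7, 9 and 2 under the first 3 of these. Between FL and BM lines, members over 2-fold were 1, and were 2 with a pseudocount of 0.1 and 3 after quantile normalization, median-of-ratios scaling or median centring. There the higher count of 0 became 2 with the 6 libraries of the comparison alone and 1 on subtraction of the neighbours' median, and the lower count of 10 became 6 at a false discovery rate of 0.05. Between YS and FL lines, the 6 higher became 0 with 6 libraries and 2 at a false discovery rate of 0.05. Cenpf and Kif2c also lost their calls between YS and BM lines with 6 libraries, without the filter and without the intensity trend. With the replicate block, which the numbers do not warrant as a pairing, no such count moved by over 1.5 times (10 higher and 5 lower, 13 lower, and 6 higher), and 4 gene calls were lost, Melk between YS and BM lines (adjusted p = 0.12), Spc25 between FL and BM lines (0.1), and Aurkb and Spc24 between YS and FL lines (0.11 and 0.13).

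Leaving out 1 line at a time gave 1 to 12 higher and 1 to 6 lower between YS and BM lines, with 0 over 2-fold in every fit. The higher count fell to 2, 5 and 1 without BM lines 1, 2 and 3, and the lower count to 1 without YS line 2, BM line 1 or BM line 3 and to 2 without FL line 3 or BM line 2. Between FL and BM lines it gave 1 to 3 over 2-fold, 0 to 2 higher and 4 to 17 lower. The lower count was 17 without FL line 1, 4 without FL line 2 or BM line 1 and 5 without FL line 3, BM line 2 or BM line 3, the 2 higher came without YS line 1, and the 3 over 2-fold without FL line 1 or BM line 2. Between YS and FL lines it gave 0 to 13 higher and 0 over 2-fold or lower, with 13 without FL line 1, 1 without FL line 2, 0 without FL line 3 and 3 without any one BM line. Fewer lines leave fewer degrees of freedom. The shares of all genes called in these fits are not given, so that the counts have no background beside them. Relative to all genes the member median ran from -0.05 to 0.06 (YS against BM), from -0.38 to -0.18 (FL against BM) and from 0.14 to 0.39 (YS against FL). The calls of Aurkb and Spc25 between YS and BM lines and of Incenp, Cenpa, Kif11 and Kif20b between FL and BM lines held without any one line. TPM gives no depth, and 3 lines per group are the only measure of error.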
